A study of Mus musculus with 9 samples.

Results

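The DUSP genes described here encode 10 dual-specificity phosphatases that act on MAP kinases: Dusp1, Dusp2, Dusp4, Dusp5, Dusp6, Dusp7, Dusp8, Dusp10, Dusp14 and Dusp16. They were chosen by name, with earlier results of these data known, and their symbols were looked up among 23393 gene rows. All 10 were found, and all 10 were among the 12219 genes with enough counts to be tested. RNA had been sequenced from regulatory T cells (Tregs, the CD4 T cells that restrain immune responses) of mouse spleen, in 9 samples. Of these, 3 carry the genotype ST2KO, 3 are wild-type cells of high ST2 level (ST2-high) and 3 are wild-type cells of low ST2 level (ST2-low). The gene Il1rl1 encodes ST2, which binds the cytokine interleukin-33. The sources used here do not give the knockout allele, the age or number of the animals, the gate used for ST2KO cells, or whether each replicate is another animal. The p-values set the differences between groups only against the spread of these samples within groups, and that spread may be technical.

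MAP kinases (ERK, JNK and p38) are switched on when a threonine and a tyrosine in their activation loop are both phosphorylated, and these phosphatases remove both phosphates. Several of the genes are themselves induced by MAP kinase activity, so that the phosphatases act as feedback brakes on the antigen receptor and on cytokine receptors. Dusp1, Dusp2, Dusp4 and Dusp5 encode nuclear enzymes. Dusp6 and Dusp7 encode cytoplasmic enzymes directed at ERK, and Dusp8, Dusp10 and Dusp16 encode enzymes directed mainly at JNK and p38. Dusp14 encodes a small atypical member that lacks the kinase-binding domain of the others. The receptor ST2 signals through MyD88 to NF-kB and to MAP kinases.

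Total counts ranged from 11659659 to 43406680 in ST2KO, from 16223242 to 29320699 in ST2-high and from 19084575 to 20098456 in ST2-low. Levels are CPM, counts normalised to library size and scaled with TMM factors, and differences were tested with edgeR's quasi-likelihood test, called at an adjusted p under 0.05 over all tested genes. Il1rl1 stood at 67.6 ± 14.0 CPM in ST2KO, 494.7 ± 66.0 CPM in ST2-high and 2.62 ± 0.84 CPM in ST2-low (mean ± SD, n = 3 each). A gene's total count says nothing of the exons it came from, so the value in the libraries labelled ST2KO does not check that label, and ST2KO below stands for the libraries so labelled. Foxp3, which defines Tregs, was at 430.2 ± 17.6, 567.7 ± 47.8 and 461.6 ± 16.3 CPM in ST2KO, ST2-high and ST2-low, and Cd4 was at 423.7 ± 17.4, 440.8 ± 9.59 and 422.4 ± 6.02 CPM. Of 6 Treg and T cell markers, 2 rose and 1 fell in ST2KO against ST2-low, beside 33.0% and 29.3% of all tested genes. Against ST2-high 1 rose and 3 fell, beside 31.9% and 32.6%. Ctla4 was at 786.3 ± 40.9, 2123 ± 71.4 and 1996 ± 46.9 CPM in ST2KO, ST2-high and ST2-low. It fell 2.54-fold and 2.7-fold in ST2KO against ST2-low and ST2-high. Il2ra and Ikzf2 rose 1.23-fold and 1.17-fold against ST2-low. Against ST2-high Il2ra rose 1.11-fold, while Foxp3 fell 1.32-fold and Ikzf2 1.16-fold. ST2-high replicate 3 stood apart from its group, with a chi-square per gene of 17.3 and 20.6 against the other ST2-high libraries while pairs of libraries in the same group otherwise gave 8.5 or less. That statistic includes the row Rn45s, with 16.69% of the counts in ST2-high replicate 3 and 12.98% and 12.11% in replicates 1 and 2. The part of Rn45s in the chi-square was not tested.

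Most of the phosphatase genes were lower in ST2KO Tregs than in either wild-type population, and Dusp7 alone among the 10 rose in both comparisons. Against ST2-low, 8 of the 10 fell, 1 rose and 1 did not pass. Of all tested genes, 29.3% fell and 33.0% rose in that comparison, 62.3% in either direction. Against ST2-high, 7 fell, 1 rose and 2 did not pass, where 32.6% of all tested genes fell and 31.9% rose, 64.5% in either direction. The ST2KO and wild-type libraries did not overlap for 9 of the 10 genes in each comparison, beside 67.2% of all tested genes against ST2-low and 66.8% against ST2-high. Falls of 2-fold or more were seen for 6 of the 10 in each comparison, while 6.64% and 8.86% of all tested genes fell that far in ST2KO against ST2-low and against ST2-high. The 6 were Dusp4, Dusp5, Dusp8, Dusp10, Dusp14 and Dusp16. The median log2 fold change of the 10 was -1.58 against ST2-low and -1.55 against ST2-high, and that of all tested genes was 0.05 and 0.02. The wild-type populations differed less. In ST2-high against ST2-low 4 of the 10 rose and 2 fell, where 15.3% of all tested genes rose and 10.8% fell, 26.1% in either direction, and their median log2 fold change was 0.01, beside -0.0024 over all tested genes. Here 7 of the 10 did not overlap, beside 38.1% of all tested genes, and 1 rose and 0 fell by 2-fold or more, beside 3.16% and 0.368%. ST2KO is shared by the first pair of comparisons and ST2-low by the first and the last, so these counts are not independent of each other. The 10 were chosen with earlier results of these data known, so their counts beside all tested genes are a description.

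**Figure D1:**
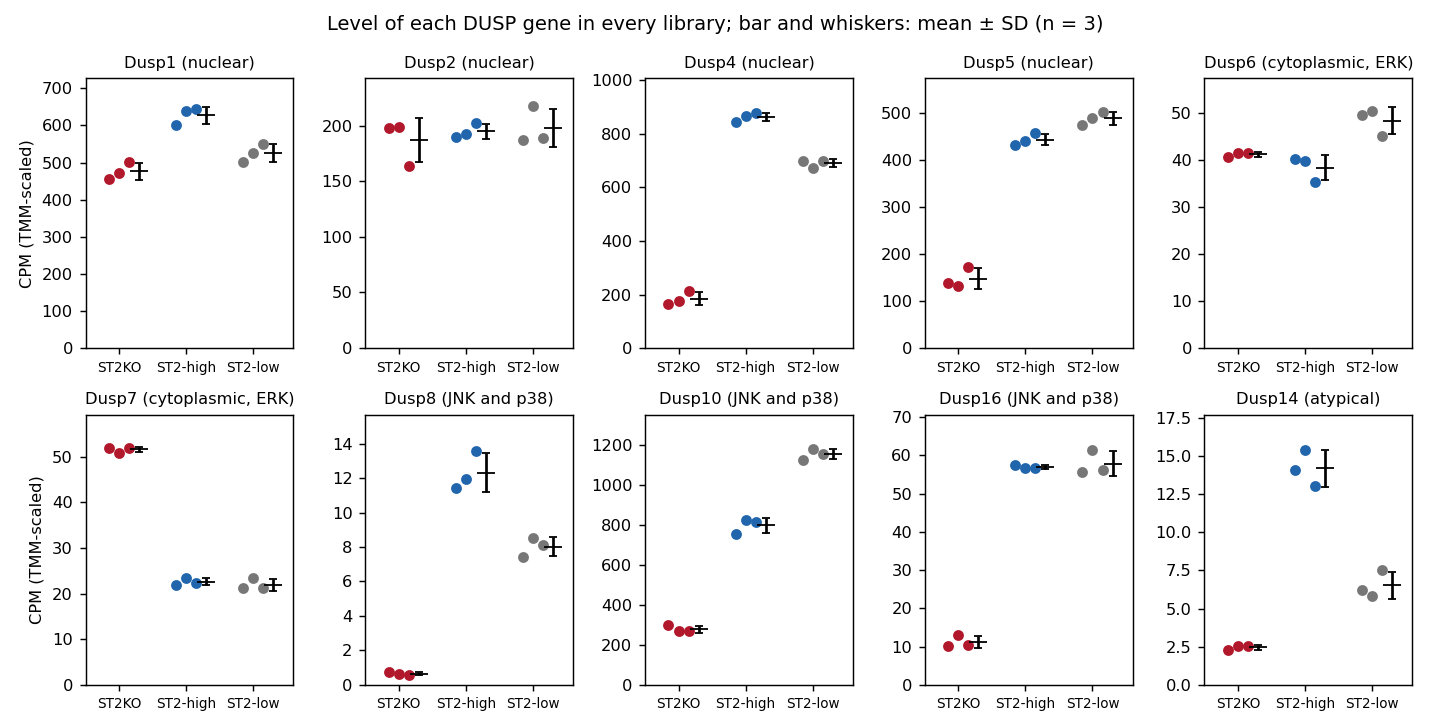
Level of each of the 10 genes in every library, in CPM scaled with TMM factors, with 1 point per library and the mean ± SD of each group (n = 3) beside its points. Each axis starts at 0. The ST2KO points of Dusp4, Dusp5, Dusp8, Dusp10, Dusp14 and Dusp16 lie below all wild-type points, those of Dusp7 lie above them, and those of Dusp2 overlap them.

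The sequence before the transcription start was compared for the genes that differed most in their response. The promoter table of RefSeq (GRCm38.p6) held 9 of the 10 genes, all but Dusp4. The 250 bases before the start were searched on both strands for the cAMP response element CRE (TGACGTCA), its core TGACG, the AP-1 element TGANTCA, the NF-kB element (GGGA, any 2 bases, TTCC), the EGR element GCGNGGGCG, the ETS element CCGGAAGT and TATAAA. Every full CRE also counts as a match of its core on each strand. The promoters of Dusp8, which had the largest fall of the 10 in ST2KO, of Dusp1, which moved little, of Dusp10, which fell strongly, and of Dusp7, which rose, are printed, each from the RefSeq start, 5′ to 3′ on the gene's strand, with matches in capitals.
Dusp8 promoter, chr7:142095285-142095534, minus strand: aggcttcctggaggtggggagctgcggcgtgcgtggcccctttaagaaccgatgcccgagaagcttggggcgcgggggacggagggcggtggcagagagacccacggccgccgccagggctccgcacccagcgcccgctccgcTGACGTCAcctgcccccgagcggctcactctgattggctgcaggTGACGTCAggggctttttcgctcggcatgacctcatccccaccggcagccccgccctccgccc
Dusp1 promoter, chr17:26508473-26508722, minus strand: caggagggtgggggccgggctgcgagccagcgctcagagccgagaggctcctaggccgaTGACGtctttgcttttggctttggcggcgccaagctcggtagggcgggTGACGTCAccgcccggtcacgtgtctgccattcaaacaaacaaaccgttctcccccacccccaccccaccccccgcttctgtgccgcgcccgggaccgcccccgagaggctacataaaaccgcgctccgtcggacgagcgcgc
Dusp10 promoter, chr1:184034131-184034380, plus strand: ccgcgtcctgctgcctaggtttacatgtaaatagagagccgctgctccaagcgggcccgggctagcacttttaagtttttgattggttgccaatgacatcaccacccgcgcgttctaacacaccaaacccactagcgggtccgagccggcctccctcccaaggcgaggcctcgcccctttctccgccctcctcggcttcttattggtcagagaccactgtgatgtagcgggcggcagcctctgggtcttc
Dusp7 promoter, chr9:106368382-106368631, plus strand: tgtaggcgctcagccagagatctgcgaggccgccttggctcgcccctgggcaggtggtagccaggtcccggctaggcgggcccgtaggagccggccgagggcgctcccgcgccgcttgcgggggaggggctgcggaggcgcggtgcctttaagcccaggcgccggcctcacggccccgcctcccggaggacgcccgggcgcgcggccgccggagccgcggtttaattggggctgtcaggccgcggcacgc
Dusp8 held 2 full CREs, whose first bases lie 107 and 63 bases before the start, and Dusp1 held 1, at 143 bases. A full CRE was present in 1.55% of the 32851 promoters in the table. The core without a full CRE was also present in the promoters of Dusp5 and Dusp16, shown here with the core in capitals.
Dusp5 window, chr19:53529078-53529106, plus strand: tatgggcactcaCGTCAcaggacgcgcac
Dusp16 window, chr6:134792682-134792710, minus strand: attggtttcaagTGACGccatctctttat
The core was thus present in 4 of the 9 promoters, beside 17.8% of all promoters in the table. An EGR element was found in the promoters of Dusp2 and Dusp16, and in 4.7% of all. No AP-1, NF-kB, ETS or TATAAA match was found in the 9, beside 6.75%, 1.21%, 2.88% and 12.4% of all promoters. The promoters of Dusp6, Dusp7, Dusp10 and Dusp14 held none of the letters searched within these windows. The windows of Dusp1 and Dusp10, among others, lie inside the gene spans given below. Sequence before any earlier start of these genes was not searched. The G and C content of the 9 lay between 56.4% for Dusp6 and 77.2% for Dusp7, and averaged 53.2% over the table. A match describes letters in this window only. Whether any of these elements has a part in the levels of the genes was not tested.

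The nuclear phosphatase genes split into a pair that fell strongly in ST2KO, Dusp4 and Dusp5, and a pair that moved little, Dusp1 and Dusp2. Dusp4 (chr8:34807297-34819894, plus strand; positions here and below are those of GENCODE M21 on GRCm38) encodes a nuclear phosphatase of ERK and JNK that is induced on T cell activation. It had 163.9, 176.7 and 212.0 CPM in ST2KO, 846.1, 866.1 and 877.9 CPM in ST2-high, and 700.1, 672.0 and 698.0 CPM in ST2-low. No library of one group reached the range of another, and the order was ST2-high, ST2-low, ST2KO. Its log2 fold change was -1.91 ± 0.07 in ST2KO against ST2-low (SE; 3.76-fold lower, edgeR adjusted p = 5.74e-19) and -2.24 ± 0.07 against ST2-high (4.71-fold lower, edgeR adjusted p = 1.96e-20). In ST2-high against ST2-low it rose 1.25-fold (log2 0.32 ± 0.06, edgeR adjusted p = 0.000314).

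Dusp5 (chr19:53529109-53542431, plus strand) encodes a nuclear phosphatase specific for ERK. Its level was 137.5, 132.6 and 172.5 CPM in ST2KO, 432.1, 439.8 and 455.8 CPM in ST2-high, and 473.4, 489.2 and 500.9 CPM in ST2-low. The ST2KO libraries lay far below both wild-type groups, which did not overlap each other either. The fall was 3.32-fold against ST2-low (log2 -1.73 ± 0.07, edgeR adjusted p = 5.49e-16) and 3.01-fold against ST2-high (log2 -1.59 ± 0.07, edgeR adjusted p = 2.31e-15). ST2-high against ST2-low gave a log2 fold change of -0.14 ± 0.07 that did not pass (edgeR adjusted p = 0.133). In the GENCODE annotation 547 bases of the Dusp5 exons are shared with a gene on the opposite strand, AC137853.2. Whether the counting used strand is not given, so reads of these genes cannot be told apart.

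Dusp1 (chr17:26505590-26562128, minus strand) encodes the immediate early phosphatase of p38, JNK and ERK that is also induced by stress and glucocorticoids. It was at 455.8, 472.8 and 500.7 CPM in ST2KO, 601.0, 638.4 and 643.1 CPM in ST2-high, and 501.7, 526.1 and 549.2 CPM in ST2-low. The highest ST2KO library lay just under the lowest ST2-low library, and ST2-high lay above both groups. Dusp1 fell 1.32-fold in ST2KO against ST2-high (log2 -0.40 ± 0.05, edgeR adjusted p = 1.2e-07) and rose 1.19-fold in ST2-high against ST2-low (log2 0.26 ± 0.05, edgeR adjusted p = 0.000413). Against ST2-low the fall was 1.1-fold (log2 -0.14 ± 0.05, edgeR adjusted p = 0.0199). That call was lost without ST2KO replicate 1 (edgeR adjusted p = 0.125), ST2KO replicate 2 (0.058) or ST2-low replicate 3 (0.118) and with upper-quartile scaling (0.241), the range over its alternatives being 0.000709 to 1.

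Dusp2 (chr2:127336159-127338376, plus strand), whose nuclear product acts on ERK and p38 and is typical of activated lymphocytes, did not pass in any comparison. Its libraries stood at 197.7, 198.5 and 163.9 CPM in ST2KO, 189.7, 192.5 and 202.0 CPM in ST2-high, and 187.4, 217.7 and 188.9 CPM in ST2-low, with all groups overlapping. In ST2KO against ST2-low the log2 fold change was -0.08 ± 0.07 (edgeR adjusted p = 0.306), and it was -0.06 ± 0.07 against ST2-high (0.479) and -0.02 ± 0.07 in ST2-high against ST2-low (0.841). Each of these signs turned under at least 1 alternative, given with the processing below.

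The cytoplasmic pair directed at ERK went different ways. Dusp7 (chr9:106368632-106375724, plus strand) had 52.0, 50.9 and 51.9 CPM in ST2KO, 22.0, 23.5 and 22.4 CPM in ST2-high, and 21.2, 23.5 and 21.2 CPM in ST2-low. Every ST2KO library lay above every wild-type library, and the wild-type groups overlapped. Dusp7 rose 2.35-fold against ST2-low (log2 1.23 ± 0.08, edgeR adjusted p = 9.59e-15) and 2.28-fold against ST2-high (log2 1.19 ± 0.08, edgeR adjusted p = 1.65e-14). Rises of 2-fold or more were made by 6.86% and 6.83% of all tested genes in these comparisons. In ST2-high against ST2-low Dusp7 did not pass (log2 0.04 ± 0.08, edgeR adjusted p = 0.778).

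Dusp6 (chr10:99263231-99267489, plus strand), the better known feedback phosphatase of ERK, was at 40.6, 41.6 and 41.6 CPM in ST2KO, 40.2, 39.8 and 35.3 CPM in ST2-high, and 49.7, 50.5 and 45.1 CPM in ST2-low. Here ST2-low stood above both other groups. It fell 1.18-fold in ST2KO against ST2-low (log2 -0.23 ± 0.07, edgeR adjusted p = 0.00529) and 1.26-fold in ST2-high against ST2-low (log2 -0.33 ± 0.07, edgeR adjusted p = 0.000698). ST2KO against ST2-high did not pass, at a log2 fold change of 0.10 ± 0.07 (edgeR adjusted p = 0.245), although these groups did not overlap. With upper-quartile scaling it passed as higher (edgeR adjusted p = 0.0339; 0.0339 to 1 over its alternatives). The ratio of Dusp7 to Dusp6 counts within a library does not depend on scaling between libraries. It was 1.28, 1.22 and 1.25 in ST2KO, 0.547, 0.59 and 0.636 in ST2-high, and 0.427, 0.465 and 0.47 in ST2-low, with no overlap between groups.

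All 3 genes of phosphatases directed at JNK and p38 fell in ST2KO against both wild-type groups. Dusp10 (chr1:184013302-184075636, plus strand), which encodes a phosphatase that restrains JNK and p38 in mouse T cells, was at 299.0, 267.4 and 267.9 CPM in ST2KO, 751.2, 825.0 and 812.3 CPM in ST2-high, and 1125, 1178 and 1156 CPM in ST2-low. The 3 groups were wholly separate, with ST2-high between the others. Dusp10 fell 4.14-fold in ST2KO against ST2-low (log2 -2.05 ± 0.06, edgeR adjusted p = 2.31e-23) and 2.86-fold against ST2-high (log2 -1.51 ± 0.06, edgeR adjusted p = 2.21e-20). It also fell 1.45-fold in ST2-high against ST2-low (log2 -0.53 ± 0.05, edgeR adjusted p = 3.62e-09).

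Dusp16 (chr6:134715468-134792625, minus strand) encodes a phosphatase with preference for JNK. It had 10.1, 13.1 and 10.5 CPM in ST2KO, 57.5, 56.6 and 56.7 CPM in ST2-high, and 55.6, 61.5 and 56.2 CPM in ST2-low. The wild-type groups overlapped, and every ST2KO library lay far below them. The fall was 5.23-fold against ST2-low (log2 -2.39 ± 0.09, edgeR adjusted p = 1.81e-20) and 5.16-fold against ST2-high (log2 -2.37 ± 0.09, edgeR adjusted p = 1.7e-20). ST2-high against ST2-low did not pass (log2 -0.02 ± 0.07, edgeR adjusted p = 0.89).

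Dusp8 (chr7:142079490-142095843, minus strand), the lowest of the 10 per transcript length in each group, had 33, 11 and 7 counts in the ST2KO libraries, or 0.716, 0.643 and 0.573 CPM. It had 11.4, 11.9 and 13.6 CPM in ST2-high and 7.4, 8.5 and 8.14 CPM in ST2-low. All groups were separate, in the order ST2-high, ST2-low, ST2KO. The fall was the largest of the 10 in both comparisons, 11.8-fold against ST2-low (log2 -3.57 ± 0.21, edgeR adjusted p = 1.91e-15) and 18.1-fold against ST2-high (log2 -4.18 ± 0.20, edgeR adjusted p = 1.4e-17), and 99.75% and 99.86% of all tested genes changed less in size. Dusp8 rose 1.53-fold in ST2-high against ST2-low (log2 0.61 ± 0.14, edgeR adjusted p = 0.00136).

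Dusp14 (chr11:84048041-84069261, minus strand), the atypical member, was at 2.28, 2.57 and 2.54 CPM in ST2KO, 14.1, 15.4 and 13.1 CPM in ST2-high, and 6.21, 5.79 and 7.54 CPM in ST2-low. The groups were separate. It fell 2.7-fold in ST2KO against ST2-low (log2 -1.43 ± 0.17, edgeR adjusted p = 1.92e-08) and 5.86-fold against ST2-high (log2 -2.55 ± 0.16, edgeR adjusted p = 1.38e-14). Its rise in ST2-high against ST2-low was the largest of the 10, at 2.17-fold (log2 1.12 ± 0.14, edgeR adjusted p = 3.16e-07), where 3.16% of all tested genes rose by 2-fold or more.

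**Figure D2:**
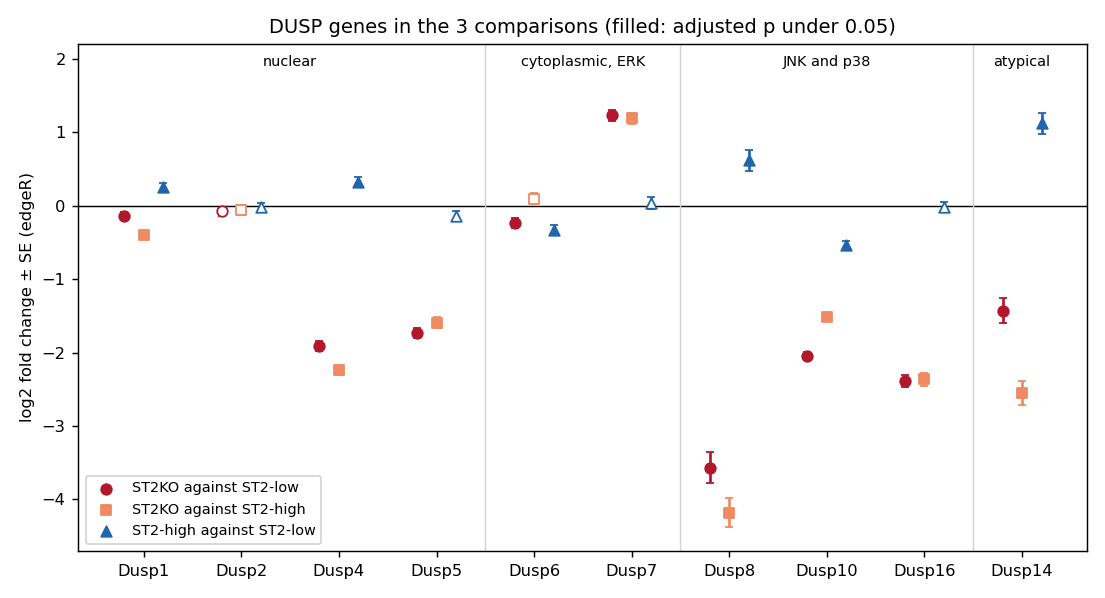
Log2 fold change ± SE from the edgeR fit for each gene in the 3 comparisons, ordered by the role of the product. Filled symbols passed at an adjusted p under 0.05. Dusp8 has the largest falls in ST2KO (log2 -3.57 and -4.18), Dusp7 is the gene that rose there (1.23 and 1.19), and the changes between the wild-type groups lie between -0.53 for Dusp10 and 1.12 for Dusp14.

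The shares of Dusp1 and Dusp10 among the 10 differed between the groups, while the sum of the 10 was lower in ST2KO and overlapped between the wild-type groups. To compare genes, CPM was divided by the length of the transcript that GENCODE M21 matches to RefSeq, from 1447 bases for Dusp14 to 5104 bases for Dusp16. Summed over the 10, this level was 616.2 ± 12.8 CPM per kb in ST2KO, 1259 ± 37.5 in ST2-high and 1290 ± 27.1 in ST2-low (mean ± SD, n = 3 each). Dusp1 led in ST2KO, with 38.8% ± 1.1 of the sum, against 25.0% ± 0.18 in ST2-high and 20.5% ± 0.6 in ST2-low. Its own level was lowest in ST2KO, at 239.4 CPM per kb, against 315.3 in ST2-high and 264.2 in ST2-low. Other shares were alike in the wild-type groups, such as that of Dusp16, with 0.89% ± 0.03 in ST2-high and 0.88% ± 0.04 in ST2-low. Dusp2 came next in ST2KO and overlapped Dusp10 there, which held 16.2% ± 1.3 in ST2KO, 22.6% ± 0.53 in ST2-high and 32.0% ± 0.27 in ST2-low. In ST2-high Dusp1 and Dusp4 shared the first place with overlapping levels, and Dusp10, Dusp5, Dusp2, Dusp6, Dusp16, Dusp14, Dusp7 and Dusp8 followed without overlap between neighbours. The order in ST2-low began with Dusp10, and Dusp1 and Dusp4, the next, overlapped. After them Dusp5, Dusp2, Dusp6, Dusp16, Dusp7, Dusp14 and Dusp8 followed without overlap. In ST2KO Dusp4 and Dusp5 overlapped behind Dusp10, and then Dusp7, Dusp6, Dusp16, Dusp14 and Dusp8 were separate from each other. Dusp7 was the sixth of 10 in ST2KO, at 16.1 ± 0.18 CPM per kb, and stood at 7.04 ± 0.24 in ST2-high and 6.84 ± 0.41 in ST2-low.

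**Figure D3:**
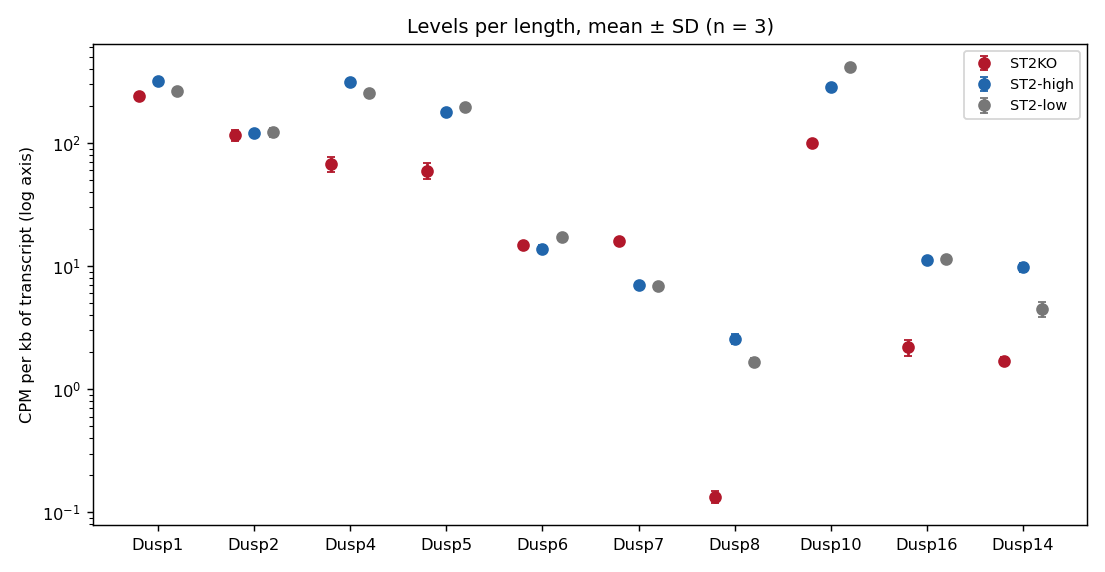
Level per length of the 10 genes in each group, in CPM per kb of transcript on a log axis, as mean ± SD (n = 3). In ST2KO the levels run from 0.134 for Dusp8 to 239.4 for Dusp1, and Dusp10 lies at 99.6 in ST2KO, 285.2 in ST2-high and 412.8 in ST2-low.

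Ratios of counts within a library show the shift in balance without any scaling between libraries. There were 1.52, 1.77 and 1.87 Dusp1 counts per Dusp10 count in ST2KO, 0.8, 0.774 and 0.792 in ST2-high, and 0.446, 0.447 and 0.475 in ST2-low. No group overlapped another. For Dusp4 over Dusp10 the ratio was 0.548, 0.661 and 0.791 in ST2KO, 1.13, 1.05 and 1.08 in ST2-high, and 0.622, 0.571 and 0.604 in ST2-low. Here ST2-high stood above both other groups, which overlapped. With 3 libraries against 3 an exact 2-sided permutation test cannot give less than p = 0.1, and 8 of the 9 comparisons of these 3 ratios reached that value (0.113 when adjusted over the 9). The exception was Dusp4 over Dusp10 in ST2KO against ST2-low, with an exact p of 0.5 (adjusted 0.5). At this sample size an exact p of 0.1 only restates that the groups do not overlap, and adds no further support.

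The other genes of the pathway did not shift as a block. Of all tested genes, 33.0% rose and 29.3% fell in ST2KO against ST2-low, and 31.9% and 32.6% did so against ST2-high. In ST2-high against ST2-low 15.3% rose and 10.8% fell. The counts of each list below are to be read beside these shares. Of 15 other dual-specificity phosphatase genes, 10 were tested. In ST2KO against ST2-low 3 of them rose and 1 fell, and against ST2-high 3 rose and 4 fell. Dusp19, Dusp22 and Dusp11, an RNA phosphatase, rose 1.85-fold, 1.76-fold and 1.11-fold against ST2-low, while Dusp3, which acts on ERK and JNK, fell 1.84-fold. Against ST2-high Dusp3 fell 3.37-fold, Dusp9 3.64-fold and Dusp18 2.28-fold, and Dusp11 rose 1.16-fold. The falls rest on low levels in ST2KO, 2.01 ± 0.68 CPM for Dusp3, 0.28 ± 0.05 for Dusp9 and 0.83 ± 0.18 for Dusp18. Dusp9 had 13, 4 and 4 counts in the ST2KO libraries. Dusp3 and Dusp9 rose in ST2-high against ST2-low, by 1.83-fold and 2.63-fold, with Dusp9 at 1.06 ± 0.51 CPM in ST2-high and 0.383 ± 0.199 CPM in ST2-low. The median log2 fold change of the 10 was -0.07, 0.12 and 0.18 in ST2KO against ST2-low, ST2KO against ST2-high and ST2-high against ST2-low.

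Among 14 tested genes of the ERK cascade, 5 rose and 7 fell in ST2KO against ST2-low, 3 rose and 7 fell against ST2-high, and 2 rose and 2 fell in ST2-high against ST2-low. Braf fell 1.52-fold in ST2KO against ST2-low, and the guanine nucleotide exchange factor gene Rasgrp1 and the scaffold gene Ksr1 rose 1.71-fold and 1.51-fold. Against ST2-high the adaptor gene Grb2 fell 2.05-fold and Braf 1.41-fold, and Rasgrp1 rose 1.59-fold. Grb2 rose 1.57-fold in ST2-high against ST2-low.

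Of 11 tested genes of the JNK and p38 cascade, 5 rose and 6 fell in ST2KO in each comparison. The JNK genes Mapk8 and Mapk9 fell 1.63-fold and 1.54-fold against ST2-low, and the p38 gene Mapk14 rose 1.34-fold against ST2-high. Map2k3, which encodes a p38 kinase kinase, was at 39.1 ± 3.23 CPM in ST2KO, 120.3 ± 4.79 in ST2-high and 58.1 ± 3.03 in ST2-low. It fell 1.5-fold against ST2-low and 3.11-fold against ST2-high, and rose 2.07-fold in ST2-high against ST2-low. Mapkapk2, a kinase downstream of p38, fell 1.66-fold and 1.95-fold in ST2KO against ST2-low and ST2-high, and Mapkapk3 fell 1.77-fold against ST2-high and rose 1.46-fold in ST2-high against ST2-low. Among 9 MAP3 kinase genes 5 fell in each ST2KO comparison, and 2 rose against ST2-low and 1 against ST2-high. Map3k14, which encodes the NF-kB-inducing kinase NIK, fell 3.65-fold and 3.71-fold against ST2-low and ST2-high, and Map3k1 1.97-fold and 2.08-fold.

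Other brakes on the pathway went both ways. Of 15 tested, 6 rose and 4 fell in ST2KO against ST2-low, 6 rose and 5 fell against ST2-high, and 3 rose and 5 fell in ST2-high against ST2-low. The tyrosine phosphatase gene Ptpn7, whose product dephosphorylates ERK and p38, rose 1.7-fold and 1.44-fold in ST2KO against ST2-low and ST2-high, and Rasal3, a Ras GTPase-activating protein of lymphocytes, rose 1.52-fold and 1.61-fold. Ptpn22, the gene of a phosphatase that restrains antigen receptor signalling, fell 2.09-fold and 1.92-fold in these comparisons, and Spred2, an inhibitor of the Ras to ERK route, fell 2.0-fold and 1.68-fold. Spry2, a feedback inhibitor of the same route, was chosen after its values were seen. It fell 2.32-fold against ST2-low and 2.01-fold against ST2-high, at 3.57 ± 1.01 CPM in ST2KO, 7.59 ± 0.71 in ST2-high and 8.82 ± 1.74 in ST2-low. Of 18 tested genes that MAP kinases are known to induce, 6 rose and 9 fell in ST2KO against ST2-low, and 6 rose and 10 fell against ST2-high, with medians of -0.23 and -0.41 (log2). Over all tested genes 33.0% rose and 29.3% fell against ST2-low, and 31.9% rose and 32.6% fell against ST2-high. Their medians were 0.05 and 0.02. Fosl2 fell 7.41-fold and 7.25-fold, Nr4a1 3.31-fold and 3.54-fold and Ier2 1.54-fold and 1.57-fold, while Jun rose 1.32-fold and 1.96-fold. Myc rose 1.7-fold against ST2-low and did not pass against ST2-high. In ST2-high against ST2-low 5 of the 18 rose and 4 fell, beside 15.3% and 10.8% of all tested genes. Jun fell 1.49-fold there and Myc rose 1.62-fold.

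**Figure D4:**
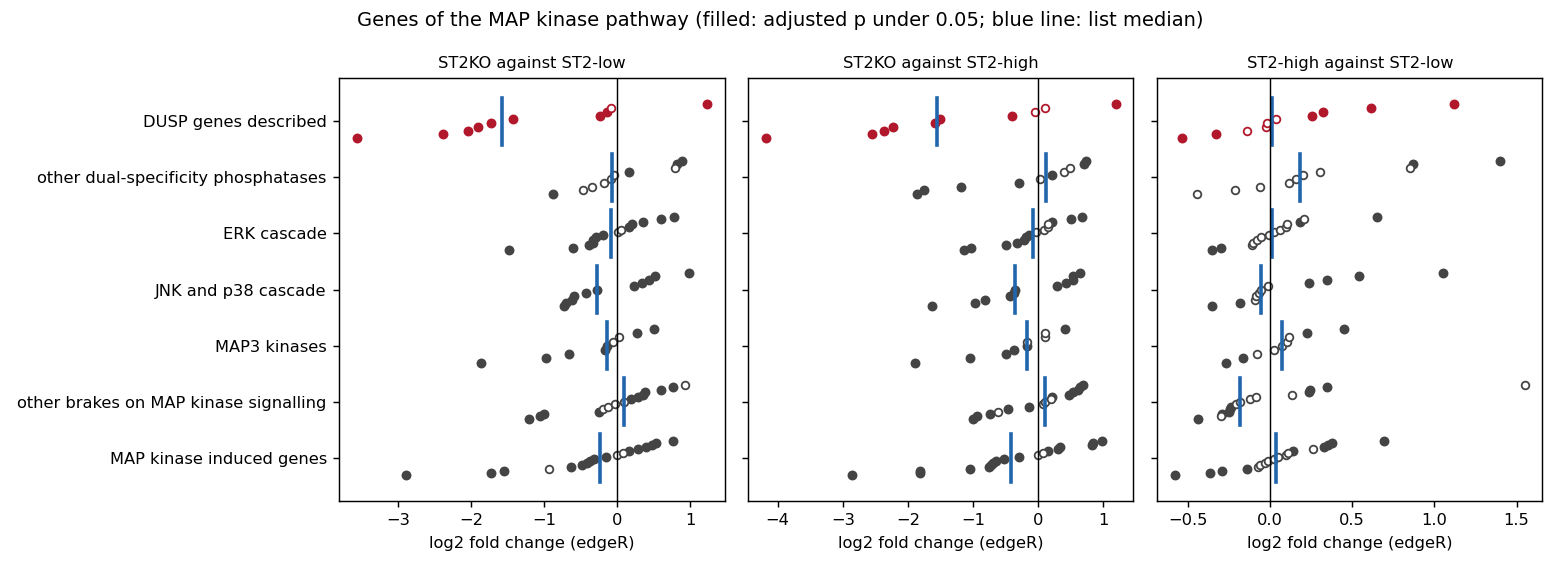
Log2 fold change from the edgeR fit of each tested gene in the 10 DUSP genes and in 6 other lists of pathway genes, in the 3 comparisons. Filled points passed at an adjusted p under 0.05, and the blue line is the list's median. The median of the 10 DUSP genes lies at -1.58 and -1.55 in the ST2KO comparisons, and those of the other lists lie between -0.41 and 0.12.

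Some markers of myeloid cells, B cells, neutrophils and plasma cells fell in ST2KO, although the B cell sums overlapped those of ST2-low. The 7 myeloid and dendritic markers summed to between 40.6 and 53.5 CPM in ST2KO, 127.1 and 130.5 CPM in ST2-high, and 133.3 and 173.0 CPM in ST2-low, and 5 of the 7 fell against ST2-low and 6 against ST2-high. None of the 7 was at 0 in a group. Of all tested genes, 29.3% fell in ST2KO against ST2-low and 32.6% against ST2-high. For 6 B cell markers the sums were 80.5 to 99.0 CPM in ST2KO, 104.7 to 128.4 in ST2-high and 91.7 to 132.4 in ST2-low, and 3 and 4 of the 6 fell in ST2KO against ST2-low and ST2-high. The 3 neutrophil markers found summed to at most 2.81 CPM in ST2KO, 12.9 in ST2-high and 18.04 in ST2-low, and all 3 fell against ST2-low and 2 against ST2-high. The 2 plasma cell markers found summed to 1.4 to 1.89 CPM in ST2KO, 3.83 to 5.44 in ST2-high and 2.81 to 4.22 in ST2-low. Of these Sdc1 was tested, and it fell 2.22-fold against ST2-low and 2.8-fold against ST2-high. Sums of the 2 CD8 T cell markers were 6.38 to 7.19 CPM in ST2KO, 5.74 to 6.52 in ST2-high and 6.62 to 7.62 in ST2-low, so that ST2KO overlapped both. The 3 NK cell markers summed to 6.9 to 8.75 CPM in ST2KO, 6.03 to 7.05 in ST2-high and 7.73 to 10.2 in ST2-low, with all ST2KO sums within the range of the wild-type groups together. Their part in the levels of the phosphatase genes was not tested. In bulk samples fewer cells of a type and less RNA per cell cannot be told apart.

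Pattern likeness was measured as Pearson's r of log2 CPM over the 9 libraries among 8831 other genes with a mean of at least 5 CPM, as a description. The 9 libraries fall into 3 groups, so that many genes share a pattern, and r was over 0.95 with 786 genes for Dusp4 and with 643 for Dusp7. The genes most like Dusp4 were Cdkn1a and Tnfaip3 (r = 0.997 each), and the most like Dusp7 were Sirt7 (r = 0.999) and Xpnpep3 (0.996). Dusp8 was most like Ulk1 and Dennd4a (0.999 and 0.998), Dusp10 most like Gimap6 and Plcxd2 (0.999 and 0.998) and Dusp14 most like Ehd4 and Scpep1 (0.994 and 0.993). Gimap6 stood at 465.6 CPM in ST2KO, 875.8 in ST2-high and 1095 in ST2-low. For Dusp5 the genes were Trp53inp2 and Dos (0.999 and 0.998), for Dusp16 Nup50 and Twsg1 (0.998 and 0.997) and for Dusp1 Tacc3 and Map3k11 (0.991 and 0.989). Dusp6 and Dusp2 had fewer genes like them, with 1 and 0 genes over 0.95. Their nearest were Pik3r1 (0.96) and Fam101b (0.941) for Dusp6, and Fto (0.912) and Thoc2 (0.86) for Dusp2.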

How the data were processed

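RNA of Tregs from mouse spleen was sequenced in 9 samples, grouped by the genotype labels. The deposited files hold whole-number counts per gene symbol, 1 file per sample; the values show no normalization. How reads were aligned and counted, on which build and with which strand setting, is not given in the sources used here. In 27 of 23420 rows the symbol had become a date; these rows, with 0.182% to 0.206% of the counts, were left out. Counts were normalised with TMM factors, filtered with filterByExpr (minimum count 10, minimum total 15) and tested with edgeR 4.0.16 (R 4.3.3), by a robust quasi-likelihood fit of the 3 group means to all 9 samples; p-values were adjusted after Benjamini-Hochberg over 12219 genes. The SE is the log2 fold change divided by the square root of F. The procedure was tested on simulated data with far fewer changes than were called here. In ST2KO against ST2-low 60, 73 and 67 genes were changed by 1.25-fold, 1.5-fold and 2-fold, while 7607 were called in the data. Whether the error rates of the simulation hold with so many changes was not tested. Of 153, 146 and 144 calls in ST2KO against ST2-low, ST2KO against ST2-high and ST2-high against ST2-low, 14, 12 and 8 were on unchanged genes. Changes of 1.25-fold were recovered for 40%, 50% and 49.1% of such genes, and changes of 2-fold for 95.5%, 88.2% and 83.6%.

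The 10 genes, the other lists and the tests were chosen with earlier results of these data known. Other list genes were named by the smallest adjusted p, up to 4 per list and comparison at 1 CPM or more; some are not printed, and a gene named in 1 comparison may be given in another. Likeness used log2(CPM + 0.5) and the 2 nearest genes, without predicted gene models. Alternatives were DESeq2 size factors, upper-quartile scaling, DESeq2 1.42.0, limma-voom (limma 3.58.1), other filters, 6 samples, a replicate block, each library removed in turn, a minimum fold of 1.5, no Rn45s and thinning.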

Additional observations from a re-analysis of the deposited data

How the results depend on the processing

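Of the 30 values (10 genes in 3 comparisons), 16 kept their direction and their side of the threshold under all 20 alternatives, among them every fall and rise of Dusp4, Dusp5, Dusp7, Dusp8, Dusp10, Dusp14 and Dusp16 in ST2KO. The counts of the 10 that rose or fell moved beyond 1.5 times in 3 cases. With upper-quartile scaling 2 instead of 1 rose in ST2KO against ST2-high, Dusp6 joining Dusp7. With a minimum fold of 1.5 as the tested limit, 1 rose and 0 fell in ST2-high against ST2-low, and over all genes 2111, 2378 and 347 were called in ST2KO against ST2-low, ST2KO against ST2-high and ST2-high against ST2-low, fewer by the construction of that test. The sign of Dusp2 turned in ST2KO against ST2-low without ST2KO replicate 3 (log2 0.0017), in ST2KO against ST2-high with upper-quartile scaling (0.024) or without ST2KO replicate 3 (0.026), and in ST2-high against ST2-low without ST2-low replicate 2 (0.046), where that of Dusp16 turned too (0.025). Leaving out 1 library at a time gave Dusp2 from -0.1236 to 0.0017, -0.1011 to 0.026 and -0.0621 to 0.046 in these comparisons, and Dusp16 from -0.046 to 0.025 in the last. The cause was not tested. Dusp5 passed as lower in ST2-high against ST2-low with no filter, only the 6 samples compared or without ST2KO replicate 3 (edgeR adjusted p = 0.0475, 0.0477 and 0.0309; 0.0309 to 1 over its alternatives). Deviations of same-numbered libraries from their group means correlated between -0.0626 and 0.0984, so the numbers were not taken as pairs. With the replicate number as a block, 7622, 7885 and 3210 genes were called instead of 7607, 7876 and 3189, and no call of the 10 changed. Leaving out each library gave 7 to 8 falls in ST2KO against ST2-low. Without ST2-high replicate 3 the counts of the 10 were unchanged. Depth limits Dusp8 most, with 7 counts in the shallowest ST2KO library.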
